A study of Mus musculus with 10 samples.

Results

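Stem and progenitor surface receptors are the proteins by which blood stem cells are sorted and through which they take up signals from their niche. Those described here are the growth factor receptors Kit, Flt3 and Tek, the chemokine receptor Cxcr4, the surface glycoproteins Cd34, Slamf1 and Cd48, the protein C receptor Procr, and Ly6a. The members were all probe sets whose gene symbol in the array annotation is one of these 9 genes. This gave 11 probe sets for 8 genes, of 45037 probe sets tested and 18193 genes named by them. Ly6a, which encodes Sca1, had no probe set under its symbol in the annotation used here, so it has no value below.

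The cells were mouse lineage-negative Sca1+ progenitors carrying a retroviral vector for EGFP together with HOXB4, a homeodomain factor under which cultured blood stem cells multiply. In 3 groups the vector held HOXB4-ER, a fusion whose activity depends on 4-hydroxytamoxifen (TMX): without TMX for 4 h, without TMX for 1 h, and kept with TMX for 1 h. In the other 2 groups it held HOXB4const, which is active with or without TMX: without TMX for 1 h and with TMX for 1 h. Withdrawal from HOXB4-ER cells asks which genes depend on active HOXB4, and the HOXB4const pair controls for effects of TMX alone at 1 h. No group was kept with TMX for 4 h, and no HOXB4const group was taken at 4 h. In every 4 h comparison below, withdrawal and longer culture therefore cannot be told apart. Every group had first grown for 14 days in serum-free medium with mouse stem cell factor, human FLT3 ligand, human interleukin 11, mouse interleukin 3 and 10 nM TMX, was sorted for GFP+, lineage-negative, Sca1+ and c-kit+ cells, and then kept 12 h more in TMX before it was split. Each group had 2 biological replicates, numbered 1 and 2, and 1 array each, 10 arrays in all; the sources used here do not give strain, age or the number of animals behind a replicate.

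KIT is the receptor for stem cell factor and FLT3 that for FLT3 ligand, so both ligands of these kinases were in the medium; TIE2, the product of Tek, binds angiopoietins. CXCR4 binds CXCL12 and holds stem cells in the marrow. In mice the pair CD150 (Slamf1) present and CD48 absent, and the protein C receptor EPCR (Procr), are used to enrich long-term stem cells, whereas FLT3, CD34 and CD48 proteins mark multipotent and later progenitors. Because c-kit and Sca1 protein were sort criteria, the level of Kit RNA was measured in cells already chosen for its product. In bulk samples fewer cells of a type and less RNA per cell cannot be told apart.

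HOX proteins bind a short TAAT core. The promoters of the 3 members with that core, and of Procr, whose values differed most between the constructs, are shown so that the receptors can be read beside their regulatory sequence. They are the 250 bases before the annotated start in RefSeq (mouse assembly GRCm38.p6), 5′ to 3′ on the strand of the gene, and capitals mark the core, searched as ATTA or TAAT. The regions are chr1:171766882-171767131 (plus strand) for Slamf1, chr1:171681742-171681991 (plus strand) for Cd48, chr1:128592300-128592549 (minus strand) for Cxcr4 and chr2:155750967-155751216 (plus strand) for Procr.
Slamf1: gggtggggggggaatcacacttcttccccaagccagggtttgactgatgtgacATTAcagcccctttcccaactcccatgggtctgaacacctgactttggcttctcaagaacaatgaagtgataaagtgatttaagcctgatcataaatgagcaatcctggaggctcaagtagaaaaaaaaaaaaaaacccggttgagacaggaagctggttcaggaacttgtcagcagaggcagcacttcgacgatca
Cd48: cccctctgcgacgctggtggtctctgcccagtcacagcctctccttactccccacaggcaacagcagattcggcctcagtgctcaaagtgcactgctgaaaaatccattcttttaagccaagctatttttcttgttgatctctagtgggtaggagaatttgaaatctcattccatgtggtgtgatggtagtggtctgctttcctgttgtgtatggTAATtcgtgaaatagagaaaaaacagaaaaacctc
Cxcr4: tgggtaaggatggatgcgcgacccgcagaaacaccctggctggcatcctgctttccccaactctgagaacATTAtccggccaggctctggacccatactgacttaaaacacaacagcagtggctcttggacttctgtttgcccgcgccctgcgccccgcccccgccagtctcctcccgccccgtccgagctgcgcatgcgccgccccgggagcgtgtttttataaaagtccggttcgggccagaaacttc
Procr: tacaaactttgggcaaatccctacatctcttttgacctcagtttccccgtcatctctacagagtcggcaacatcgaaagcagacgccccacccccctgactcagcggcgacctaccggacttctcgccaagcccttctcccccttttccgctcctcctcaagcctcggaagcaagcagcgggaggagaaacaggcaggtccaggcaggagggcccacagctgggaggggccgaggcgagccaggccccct

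Of the 8 members with a promoter in the RefSeq table, 3 held the core, against 54.9% of all 32851 promoters of this length. The composite HOX-PBX letters TGATTNAT, searched on both strands, were found in 0 of 8 against 2.82%, and the GATA letters AGATAA in 0 of 8 against 9.99%. The composite overlaps the core where N is A. Slamf1 and Cd48 are neighbours on chromosome 1, with Tma7-ps as the one entry between them among the protein-coding entries of the table. Kit lies on chromosome 5 between Pdgfra and Kdr, both genes of other receptor tyrosine kinases.

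All values are log2 signals. The arrays had medians between 3.96 and 5.32; the highest was HOXB4const without TMX at 1 h, replicate 1, where 0.0155% of values lay below 0, against 0.377% to 8.17% on the others. The brighter Hoxb4 probe set read 4.37 to 6.59; every group carries a HOXB4 vector, so this is no check of the labels. No probe set of the 45037 passed an adjusted p under 0.05 in any of the 7 comparisons made with limma. Between 3.35% and 13.7% were under an unadjusted p of 0.05. The Gapdh control probe sets at the 3′ and 5′ ends differed by 2.72 ± 1.08 in replicate 2 and by 1.10 ± 0.26 in replicate 1 (mean ± SD of 5 arrays). A two-sided exact permutation test gave p = 0.00794, the smallest that 5 arrays against 5 allow. The labels say that populations were split, so the 5 arrays of a replicate number are not 5 independent cultures. This limit holds for every comparison of replicate numbers below.

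Kit was read by 2 probe sets. On the brighter, 1452514_a_at, HOXB4-ER cells had 10.93 and 10.02 after 4 h without TMX (replicates 2 and 1), 10.07 and 9.01 after 1 h without TMX, and 10.25 and 9.38 with TMX. HOXB4const cells had 10.12 and 8.72 without TMX and 9.44 and 9.76 with TMX. The highest array was the 4 h replicate 2 culture and the lowest HOXB4const without TMX replicate 1, and every neighbouring pair of groups in the order of means overlapped.

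After 4 h without TMX, Kit stood higher than with TMX by 0.66 ± 0.69 (limma difference ± SE; adjusted p = 1), with 0.69 in replicate 2 and 0.64 in replicate 1. Against 1 h without TMX it stood higher by 0.94 ± 0.69 (limma adjusted p = 0.964), again in both replicates. Neither difference passed the test, although the direction was the same within both replicate numbers. The second probe set, 1415900_a_at, did not share it: it differed by −0.44 ± 1.22 at 4 h against with TMX (limma adjusted p = 1).

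The Kit probe sets differed in opposite directions between the replicate numbers. For 1415900_a_at the lowest, median and highest arrays were 4.49, 5.32 and 6.10 in replicate 2, against 6.63, 7.17 and 7.54 in replicate 1, so the 2 sets did not overlap. The difference was −1.81 ± 0.39 (limma adjusted p = 0.190), lower in 5 of 5 groups. The brighter probe set had 9.44, 10.12 and 10.93 in replicate 2, against 8.72, 9.38 and 10.02 in replicate 1, a difference of 0.78 ± 0.32 (limma adjusted p = 0.365) that was higher in 4 of 5 groups. Read as the mean of both probe sets, Kit differed by −0.51.

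Within replicate 2 the dimmer Kit probe set was lower the larger the Gapdh 3′ minus 5′ difference was. At differences of 1.48, 1.74, 2.93, 3.47 and 3.98 it read 6.10, 5.77, 5.32, 4.69 and 4.49, while the brighter read 10.07, 10.25, 9.44, 10.93 and 10.12 with no such order. Within replicate 1, where Gapdh differences ran between 0.74 and 1.42, the dimmer probe set held no order. The part of the Gapdh difference in the Kit values was not tested.

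**Figure D1:**
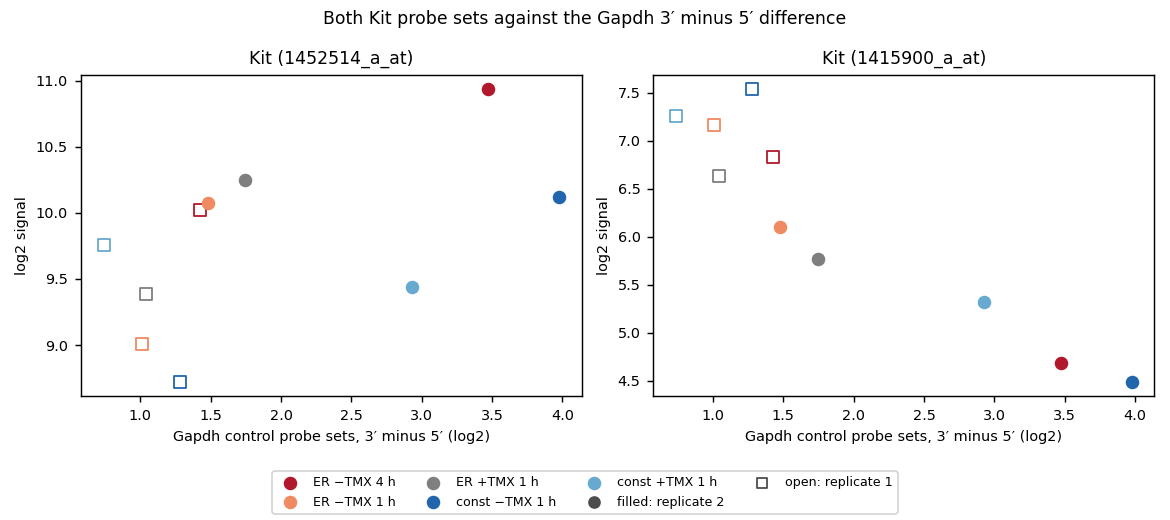
Each point is 1 array, with the log2 difference between the Gapdh 3′ and 5′ control probe sets on the horizontal axis and the log2 signal of a Kit probe set on the vertical axis (left, 1452514_a_at; right, 1415900_a_at); filled circles are replicate 2, open squares replicate 1, and colours are the groups. On the right the replicate 2 arrays descend to 4.49 at a Gapdh difference of 3.98, while on the left no such order is seen.

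In HOXB4-ER cells Flt3 (1419538_at) had 6.89 and 7.50 at 4 h without TMX (replicates 2 and 1), 6.89 and 7.41 after 1 h without TMX, and 6.99 and 8.11 with TMX. In HOXB4const cells it had 5.92 and 7.54 without TMX and 5.70 and 7.63 with TMX. The HOXB4const cultures of replicate 2 were the lowest arrays, and the HOXB4-ER culture with TMX of replicate 1 was the highest. Withdrawal for 4 h gave −0.36 ± 0.85 and withdrawal for 1 h −0.40 ± 0.85 (limma adjusted p = 1 for both).

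Between constructs at 1 h, Flt3 stood higher in HOXB4-ER than in HOXB4const cells by 0.65 ± 0.60 (limma adjusted p = 0.903), with 1.13 in replicate 2 and 0.18 in replicate 1. Within replicate 2 the Gapdh 3′ minus 5′ difference was 1.48 and 1.74 with HOXB4-ER and 2.93 and 3.98 with HOXB4const. Its part in the Flt3 difference between constructs was not tested. Replicate 2 arrays were below replicate 1 arrays in 5 of 5 groups without overlap, 6.48 ± 0.62 against 7.64 ± 0.27 (SD of 5 arrays each). That replicate difference was −1.16 ± 0.31 (limma adjusted p = 0.243).

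Tek (1418788_at), the gene of the angiopoietin receptor, had a mean near the median of all probe sets. HOXB4-ER cells had 3.58 and 4.10 after 4 h without TMX (replicates 2 and 1), 5.37 and 4.11 after 1 h without TMX, and 3.59 and 4.50 with TMX. HOXB4const cells had 2.79 and 4.96 without TMX and 4.73 and 2.91 with TMX. Within a group, replicate 2 minus replicate 1 ran between −2.18 and 1.82, and no group stood apart from its neighbour in the order of means. The 4 h arrays were both below the 1 h arrays without TMX, by −0.90 ± 0.94 on the mean (limma adjusted p = 0.967).

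Cxcr4 (1448710_at) followed the replicate number more closely than any group. HOXB4-ER cells had 6.09 and 7.23 after 4 h without TMX (replicates 2 and 1), 5.65 and 7.87 after 1 h without TMX, and 6.22 and 7.33 with TMX. HOXB4const cells had 5.16 and 6.89 without TMX and 6.22 and 7.64 with TMX. Every replicate 2 array was below every replicate 1 array, 5.87 ± 0.46 against 7.39 ± 0.38 (SD of 5 arrays each, which include splits of shared cultures).

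The replicate difference of Cxcr4 was −1.53 ± 0.27 (limma adjusted p = 0.164; unadjusted p = 0.00141). Withdrawal of TMX gave differences of −0.12 ± 1.01 at 4 h and −0.02 ± 1.01 at 1 h with HOXB4-ER, and −0.90 ± 1.01 with HOXB4const (limma adjusted p = 1 for all). In the HOXB4const pairs the cultures without TMX were lower in both replicates. The test of whether the 1 h effect differed between HOXB4-ER and HOXB4const gave 0.88 ± 1.42 (limma adjusted p = 1).

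**Figure D2:**
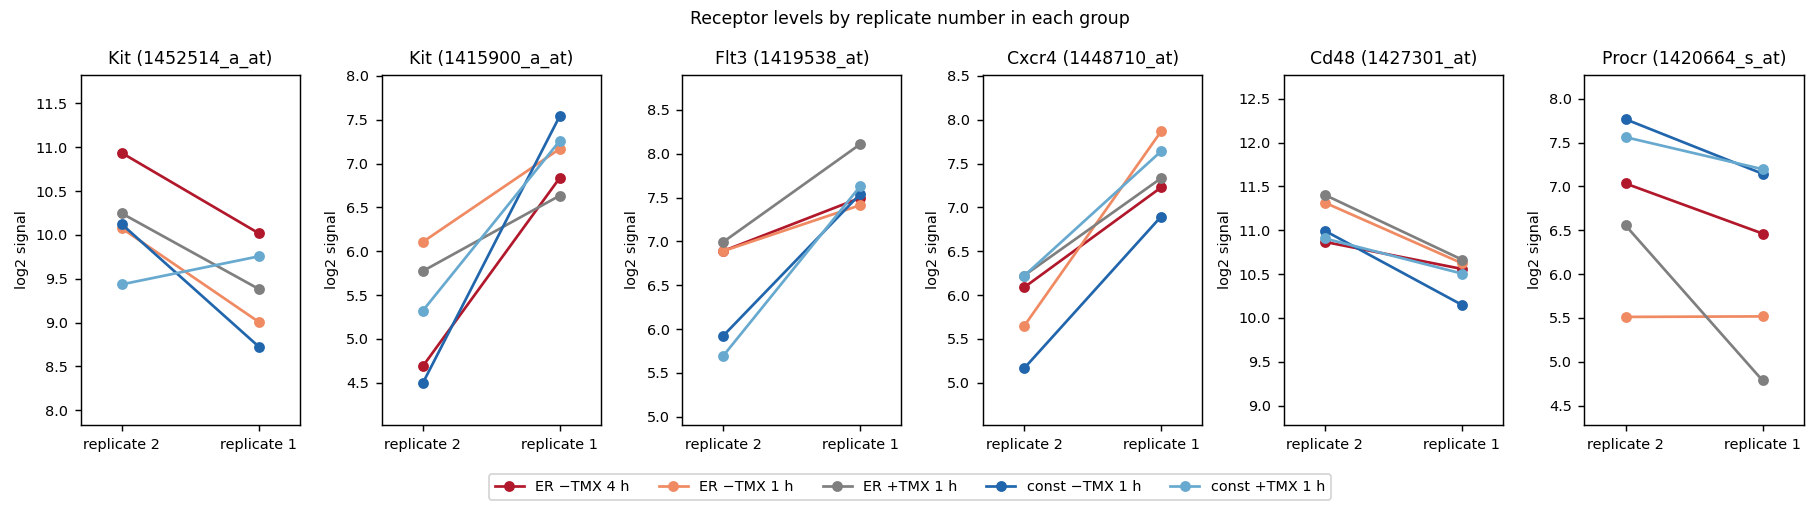
Lines join the replicate 2 and replicate 1 arrays of each group (colour) for 6 receptor probe sets, with the log2 signal on the vertical axis. Kit 1415900_a_at, Flt3 and Cxcr4 were lower in replicate 2 and Cd48 higher in replicate 2 in 5 of 5 groups, while Kit 1452514_a_at was higher in 4 of 5.

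Cd34 (1416072_at), the gene of a sialomucin of progenitor and endothelial cells, had a narrow range. HOXB4-ER cells had 11.31 and 10.78 after 4 h without TMX (replicates 2 and 1), 11.26 and 11.86 after 1 h without TMX, and 11.30 and 11.15 with TMX. HOXB4const cells had 11.09 and 11.75 without TMX and 10.89 and 11.66 with TMX. All groups overlapped with their neighbours in the order of means. The difference at 4 h was −0.18 ± 0.51 (limma adjusted p = 1), with a 95% interval reaching 1.20 to either side of it, the narrowest among the members.

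Slamf1, the gene of CD150, was read by 3 probe sets. On the brightest, 1425570_at, HOXB4-ER cells had 4.28 and 4.99 after 4 h without TMX (replicates 2 and 1), 5.68 and 4.23 after 1 h without TMX, and 4.66 and 5.58 with TMX. HOXB4const cells had 4.20 and 3.47 without TMX and 5.42 and 4.54 with TMX. Both HOXB4const arrays without TMX were thus lower than both with TMX, a difference of −1.15 ± 0.69 (limma adjusted p = 1).

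The dim Slamf1 probe set 1425569_a_at stood the other way in the same comparison. It read 3.42 and 5.49 in HOXB4const cells without TMX, against 0.75 and 0.11 with TMX, a difference of 4.03 ± 0.81 (limma adjusted p = 0.855; unadjusted p = 0.00151). On the 6 HOXB4-ER arrays it lay between 0.23 and 2.68. Its mean was below the median of all probe sets, the replicate 1 array without TMX is the one with the highest array median, and with values under 3 raised to 3 the difference was 1.46, so the size is not firmly measured. The difference between the 1 h effects of HOXB4-ER and HOXB4const was −3.60 ± 1.15 (limma adjusted p = 1; unadjusted p = 0.0160). The third probe set, 1425571_at, read 0.61 to 2.28 on all arrays. In HOXB4const cells it also stood higher without TMX, by 0.78 ± 0.70 and without overlap, but with values under 3 raised to 3 that difference was 0. Read as the mean of all its probe sets, Slamf1 differed by 1.22 in this comparison, against the direction of the brightest.

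Cd48 (1427301_at), the gene of a ligand of CD244 and a SLAM-family member, had its lowest signal in HOXB4const cells without TMX. HOXB4-ER cells had 10.87 and 10.56 after 4 h without TMX (replicates 2 and 1), 11.32 and 10.63 after 1 h without TMX, and 11.40 and 10.67 with TMX. HOXB4const cells had 11.00 and 10.15 without TMX and 10.91 and 10.51 with TMX. Cd48 was higher on every replicate 2 array than on every replicate 1 array, 11.10 ± 0.25 against 10.50 ± 0.21 (SD of 5 arrays each). That replicate difference was 0.60 ± 0.22 (limma adjusted p = 0.339). Withdrawal differences were −0.32 ± 0.53 at 4 h and −0.06 ± 0.53 at 1 h (limma adjusted p = 1 for both).

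Procr (1420664_s_at) was the one receptor whose arrays did not overlap between the constructs. HOXB4-ER cells had 5.51 and 5.52 after 1 h without TMX (replicates 2 and 1) and 6.55 and 4.79 with TMX. HOXB4const cells had 7.77 and 7.14 without TMX and 7.56 and 7.20 with TMX. The 4 HOXB4-ER arrays at 1 h averaged 5.59 ± 0.73 and the 4 HOXB4const arrays 7.42 ± 0.30 (SD of 4 arrays each). The 4 arrays of a construct came from 2 replicate numbers, each split with and without TMX, so they are not 4 independent cultures.

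The Procr difference between HOXB4-ER and HOXB4const cells was −1.82 ± 0.46, with a 95% interval of −2.90 to −0.75 (limma adjusted p = 0.446; unadjusted p = 0.00506). It was −1.63 within replicate 2 and −2.02 within replicate 1. In replicate 2 the Gapdh 3′ minus 5′ difference was 2.93 and 3.98 with HOXB4const, against 1.48 and 1.74 with HOXB4-ER at 1 h. In replicate 1 it was 0.74 and 1.28 with HOXB4const, against 1.01 and 1.04 with HOXB4-ER at 1 h. The part of the Gapdh difference in the comparisons between constructs was not tested. The fit counts every array as independent. The interval and p above, and those of the other comparisons between constructs, therefore take splits of a culture as replicates. Arrays failed to overlap between constructs for 1 of 11 receptor probe sets, against 4.19% of all probe sets. The median of all probe sets differed by −0.17 in the same direction, and with each array centred on its median Procr differed by −1.45. The constructs were transduced as separate cultures, so any other difference between those cultures cannot be told apart from the construct.

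After 4 h without TMX, Procr read 7.03 and 6.46 in HOXB4-ER cells (replicates 2 and 1), against 6.55 and 4.79 with TMX at 1 h, a difference of 1.08 ± 0.65 (limma adjusted p = 1) with 0.48 in replicate 2 and 1.68 in replicate 1. Against 1 h without TMX both 4 h arrays were higher, by 1.23 ± 0.65 on the mean (limma adjusted p = 0.935; unadjusted p = 0.0981). In the order of group means the HOXB4const groups came first, then HOXB4-ER at 4 h without TMX, then the HOXB4-ER groups at 1 h. Of the neighbours in that order, the HOXB4const group with TMX and the 4 h HOXB4-ER group did not overlap, with 0.63 between their means. The 4 h cells had also been cultured longer than the 1 h cells with TMX, and time and withdrawal cannot be told apart there. Gapdh differences were 3.47 and 1.42 on the 4 h arrays (replicates 2 and 1), and their part in the Procr values was not tested.

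**Figure D3:**
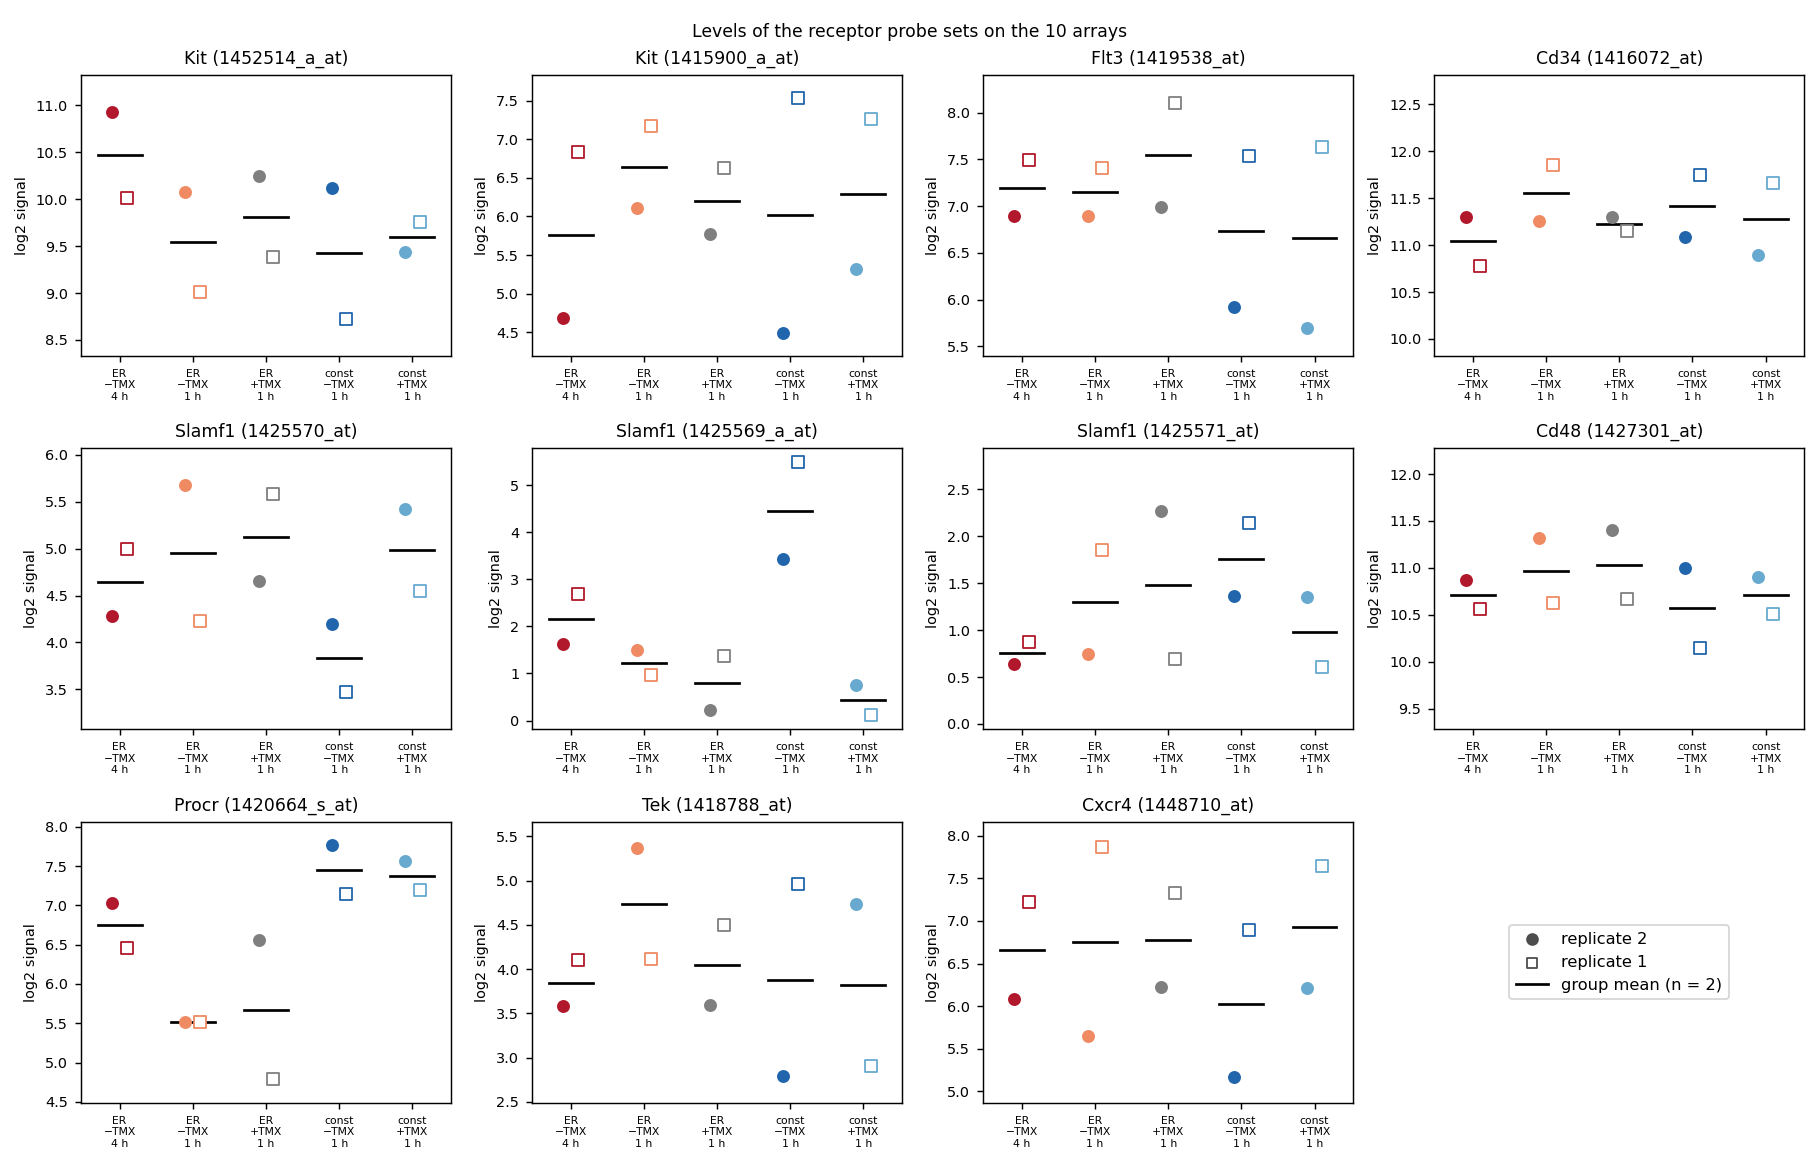
Each panel shows 1 probe set, with the log2 signal on the vertical axis and the 5 groups on the horizontal axis; filled circles are replicate 2, open squares replicate 1 and lines group means (n = 2). Procr lies lowest in HOXB4-ER at 1 h, with 5.51 and 5.52 without TMX, and highest in HOXB4const, up to 7.77.

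Across the receptors, 0 of 11 probe sets passed the limma threshold in any comparison. At an unadjusted p under 0.05 the count was 0 of 11 for withdrawal at 4 h in HOXB4-ER cells, against 3.35% of all probe sets, 0 of 11 at 1 h against 4.76%, and 0 of 11 for 4 h against 1 h without TMX against 5.68%. It was 1 of 11 for withdrawal in HOXB4const cells against 4.34%, 1 of 11 for the difference of the 1 h effects against 3.77%, 2 of 11 between constructs against 7.52% and 5 of 11 between replicate numbers against 13.7%. The comparisons at 4 h and 1 h in HOXB4-ER cells share the arrays with TMX. Arrays of the groups did not overlap for 1 of 11 probe sets at 4 h, where 30.0% of all probe sets did not, for 0 of 11 at 1 h against 32.1%, for 3 of 11 for 4 h against 1 h without TMX against 36.2%, and for 3 of 11 in HOXB4const cells against 25.0%. Between replicate numbers 4 of 11 did not overlap, against 6.50%.

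The 95% intervals of the withdrawal differences reached from 1.20 to 2.88 log2 units to either side, depending on the probe set. They come from the fit without the replicate block, so they hold the spread between replicate numbers. They are also not adjusted for the number of probe sets, so they are not a limit of detection. With 2 arrays a group, small effects of HOXB4 activity on these receptors were not resolved. Taking the brightest probe set of each of the 8 genes, the median difference at 4 h was −0.19, with 2 higher and 6 lower, beside −0.02 over all probe sets. Between constructs it was 0.33, with 7 higher and 1 lower, beside −0.17.

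**Figure D4:**
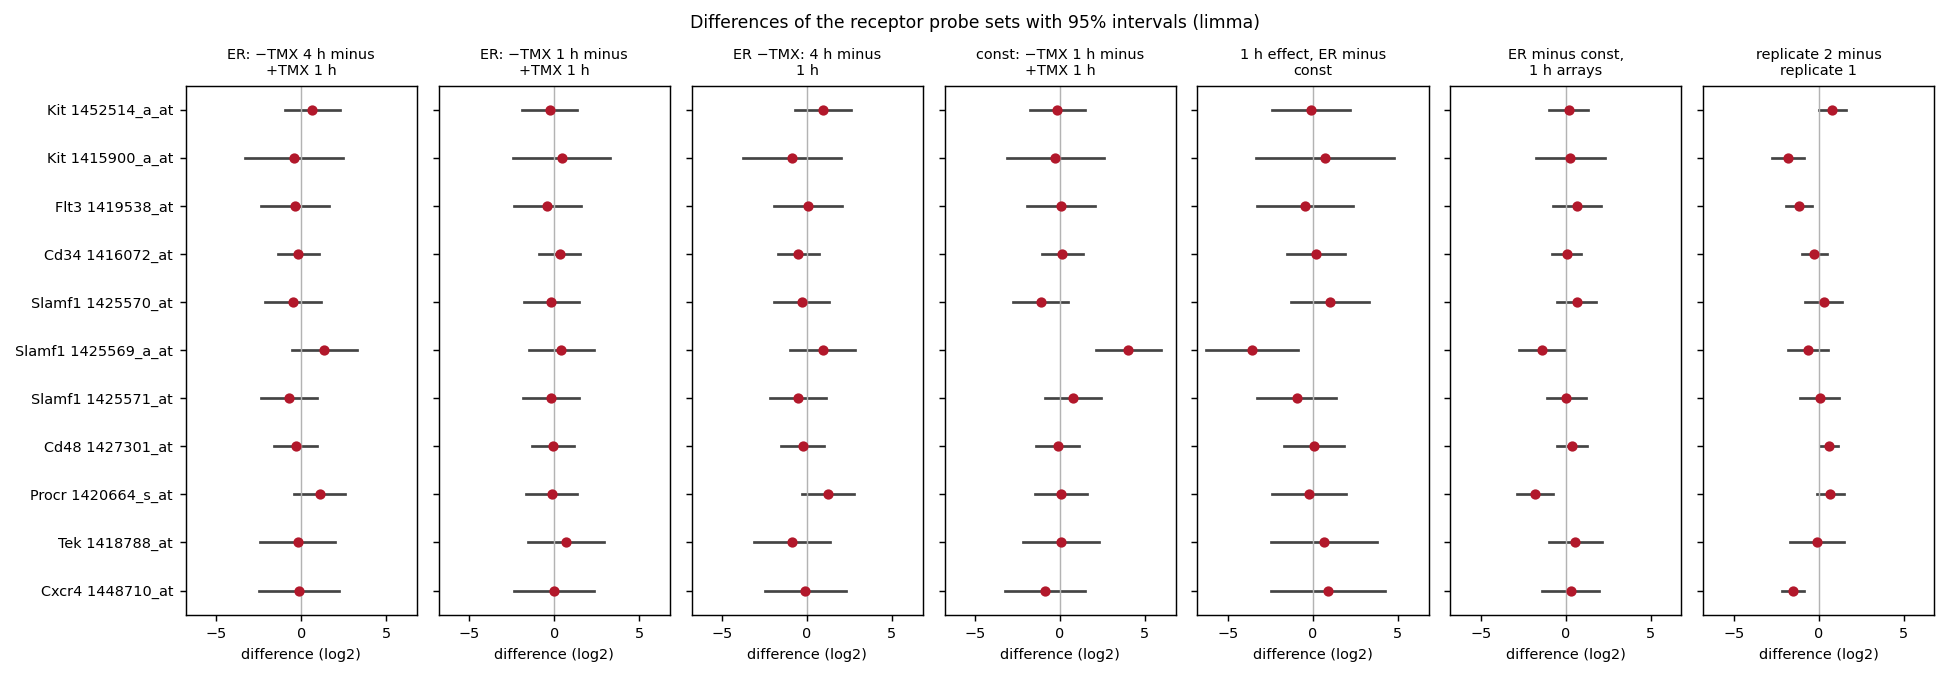
Points are limma differences in log2 units for the 11 probe sets (rows) in the 7 comparisons (panels), and bars are 95% intervals. The intervals that do not reach 0 are those of Slamf1 1425569_a_at for withdrawal in HOXB4const cells (centred at 4.03), for the difference of effects and between constructs, of Procr between constructs (−1.82), and, between replicate numbers, of both Kit probe sets, Flt3, Cd48 and Cxcr4. None of these passed the adjusted threshold.

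Several receptors varied together over the arrays. Over 10 arrays Pearson's r was 0.83 between Kit 1415900_a_at and Cxcr4, 0.78 between Kit 1415900_a_at and Flt3 and 0.76 between Flt3 and Cxcr4. After the mean of each replicate number was subtracted, the same pairs had 0.19, 0.24 and 0.14. Flt3 and Procr had −0.63 both before and after that step. These arrays share culture, amplification and chip, and the values describe them without a test.

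The genes whose levels followed each receptor most closely were found among 19228 brighter probe sets of 1 gene. Picked as the highest of so many over 10 arrays, these r values were not tested. The shift between replicate numbers was not removed from them. Chst11 (Pearson's r 0.98), Basp1 and Dnmt3b stood nearest to Kit over the 10 arrays, and Gnpda2 (0.97), Rnps1 and Mief1 nearest to Flt3. Galnt2 (0.97), Gsn and Gm7788 stood nearest to Cd34, Gca (0.95), Atp5j2 and Lce3b nearest to Slamf1, and Dis3 (0.97), Cdc14b and Rpia nearest to Cd48. Bet1 (0.94), Fnbp1 and Rpgr stood nearest to Procr, Mrps18b (0.89), Ptn and Mcm5 nearest to Tek, and Tnrc6a (0.97), Sft2d1 and Snx18 nearest to Cxcr4.

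Other genes of the same pathways were read through lists of 175 distinct measured genes, and 0 of them passed the limma threshold in any comparison. Of the 12 measured ligands and partners of the receptors, 5 stood higher and 7 lower after 4 h without TMX (median −0.02). Cxcl12, the CXCR4 ligand, had −1.12 ± 1.02 and Ackr3, a decoy receptor for it, 2.12 ± 1.55, both dim. Of 21 signalling proteins and negative regulators of KIT, FLT3 and TIE2, 11 stood higher and 10 lower (median 0.05), and the smallest p belonged to Socs6 (−1.34 ± 0.62) and Socs2 (−1.81 ± 0.87), suppressors of cytokine signalling. Of 15 signalling proteins and regulators of CXCR4, 9 stood higher and 6 lower (median 0.08), led by Rgs1 (0.94 ± 0.68) and Rgs18 (−0.76 ± 0.56), which speed the shut-off of G proteins. All of these had a limma adjusted p of 1.

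At 4 h the other surface genes of stem and progenitor cells divided into 16 higher and 15 lower (median 0.02), with the dim Prom1 at −4.54 ± 1.01 and Robo4 at 2.17 ± 0.79. The 10 cytokine receptors divided into 5 and 5 (median −0.09), with Csf2rb, the common β chain of the interleukin 3 receptor, at 0.42 ± 0.47 and Csf3r, the G-CSF receptor, at −0.37 ± 0.43. Of 19 transcription factors placed upstream of the receptors, 12 stood higher and 7 lower (median 0.23), with Lyl1 at 0.81 ± 0.46 and Runx1 at 0.51 ± 0.45. None of these differences passed (limma adjusted p = 1). In the lists for mature and other cell types the smallest p at 4 h belonged to Tpsab1 (2.84 ± 1.22) and Cpa3 (0.21 ± 0.43) of mast cells, Cd163 (1.69 ± 1.51) and Ccr2 (−0.53 ± 0.79) of monocytes and macrophages, and Zbtb46 (2.13 ± 0.46) and Cd209a (−1.53 ± 1.22) of dendritic cells. It belonged to Plvap (2.70 ± 1.05) and Pdgfrb (0.77 ± 0.61) of endothelium and stroma, Alas2 (1.35 ± 0.65) and Klf1 (0.82 ± 0.48) of erythroid cells, and Cd4 (−1.94 ± 1.17) and Cd3e (1.60 ± 0.98) of the lineage panel, again with a limma adjusted p of 1. These lists also went both ways. Mast cell and basophil markers divided into 9 higher and 4 lower (median 0.19), monocyte and macrophage markers into 6 and 7 (−0.14). Dendritic cell markers divided into 8 and 5 (0.34), endothelial and stromal markers into 8 and 10 (−0.09). Erythroid and megakaryocyte markers divided into 6 and 5 (0.03), the lineage panel into 4 and 3 (0.63).

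Between constructs at 1 h, Abcg2, the drug efflux pump of the stem cell side population, read 5.75 with HOXB4-ER and 2.77 with HOXB4const, a difference of 2.99 ± 0.43 (limma adjusted p = 0.297). Mecom, a transcription factor needed by stem cells, read 5.40 with HOXB4-ER and 3.20 with HOXB4const, a difference of 2.19 ± 0.38 (limma adjusted p = 0.322). Abcg2 and Mecom thus stood on the opposite side from Procr, and Cd27 (1.17 ± 0.48) and Epor (0.99 ± 0.44), the erythropoietin receptor, on the same side as Abcg2. The HOXB4const means of Abcg2 and Mecom lay below 4.05, the median of the mean levels of all probe sets. The size of the Abcg2 and Mecom differences is therefore not firmly measured. Of the 31 other surface genes 19 stood higher and 12 lower, of the 15 CXCR4 regulators 13 and 2, led by the dim protease gene Dpp4 (2.25 ± 0.41), and of the 19 transcription factors 11 and 8. Of the ligands and partners 5 stood higher and 7 lower, with Selp, the gene of P-selectin, at −1.20 ± 0.57 and the dim Ackr3 at −2.21 ± 1.09. The 10 cytokine receptors divided into 5 and 5, with Csf3r at 0.44 ± 0.31, and the 21 signalling genes of KIT, FLT3 and TIE2 into 10 and 11, with Grb10 at −1.01 ± 0.52 and Pik3cd at 0.54 ± 0.29. Lyl1 stood at −0.53 ± 0.33 and Rgs16 at 1.41 ± 1.00, and none of these passed.

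Markers of mature cells were summed on each array. The sums were not tested, and no single marker passed the limma threshold. Between constructs, the summed log2 signal of 13 mast cell and basophil markers ran between 12.5 and 13.1 in HOXB4-ER cells at 1 h and between 13.0 and 13.3 in HOXB4const cells. For 11 erythroid and megakaryocyte markers it ran between 10.5 and 12.0 with HOXB4-ER and between 12.0 and 12.8 with HOXB4const. Ms4a2, the β chain of the mast cell IgE receptor, read 9.10 with HOXB4-ER and 10.59 with HOXB4const (difference −1.49 ± 0.37, limma adjusted p = 0.444). The part of these cells in the Procr difference was not tested. Endothelial and stromal markers, 18 genes of which 12 were below the median of all probe sets, ran between 9.57 and 9.89 with HOXB4-ER and between 9.49 and 10.3 with HOXB4const. The monocyte and macrophage sum ran between 10.6 and 14.1 with HOXB4-ER and between 11.4 and 13.5 with HOXB4const, and the dendritic cell sum between 8.31 and 12.4 with HOXB4-ER and between 8.30 and 9.64 with HOXB4const. These lists went both ways. Of the mast cell and basophil markers 7 stood higher and 6 lower with HOXB4-ER (median 0.13), of the erythroid and megakaryocyte markers 5 and 6 (−0.14), and of the endothelial and stromal markers 7 and 11 (−0.23). Of the monocyte and macrophage markers 6 stood higher and 7 lower (−0.14), of the dendritic cell markers, which include Flt3, 9 and 4 (0.65), and of the lineage panel 1 and 6 (−0.22). Besides Ms4a2, the smallest p in each of these lists belonged to Hdc (−0.78 ± 0.31), Alas2 (−1.30 ± 0.46), Epor, Cdh5 (1.36 ± 0.43), Lum (−1.82 ± 0.69), Msr1 (−1.11 ± 0.50), Cd163 (−2.33 ± 1.07), Xcr1 (−2.07 ± 0.72) and Zbtb46 (−0.76 ± 0.33), and, in the lineage panel, to Cd8a (−0.59 ± 0.45) and Cd3g (−1.08 ± 0.86).

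Between the replicate numbers the shift of myeloid markers was larger. The 13 monocyte and macrophage markers summed to between 10.6 and 11.4 on replicate 2 arrays and between 13.4 and 14.1 on replicate 1 arrays, and 12 of 13 stood lower in replicate 2 (median −2.46, beside −0.15 over all probe sets). Lyz2, the gene of lysozyme, read 9.37 in replicate 2 and 12.53 in replicate 1 (difference −3.16 ± 0.36, limma adjusted p = 0.136), and Itgam, the gene of the lineage marker CD11b, read 4.50 in replicate 2 and 7.29 in replicate 1 (−2.79 ± 0.31, limma adjusted p = 0.134). The 13 dendritic cell markers, of which Flt3 is one, ran between 8.30 and 8.56 in replicate 2 and between 9.46 and 12.5 in replicate 1, with Ccr7 at −4.34 ± 0.79 and Itgax at −3.26 ± 0.61. Mast cell and basophil markers ran between 12.5 and 13.3 in replicate 2 and between 12.9 and 13.2 in replicate 1, and the 7 measured genes of the lineage panel between 6.15 and 7.72 in replicate 2 and between 7.66 and 8.53 in replicate 1. Mcpt1 stood at −2.81 ± 0.52, Mcpt2 at −2.35 ± 0.45, Cd79a at −1.96 ± 0.67, Vwf at −2.21 ± 0.59, Pecam1 at −1.23 ± 0.39 and Pf4, the gene of platelet factor 4, at 1.30 ± 0.35. Of the mast cell and basophil markers 3 stood higher and 10 lower in replicate 2 (median −1.10), of the lineage panel 2 and 5 (−0.87). Endothelial and stromal markers divided into 7 and 11 (−0.52), and erythroid and megakaryocyte markers into 4 and 7 (−0.12). Over the 10 arrays Pearson's r with the Gapdh 3′ minus 5′ difference was −0.93 for Kit 1415900_a_at, −0.82 for Flt3 and −0.79 for Cxcr4. It was 0.61 for Procr, 0.54 for Kit 1452514_a_at and 0.37 for Cd48. The part of these cells, and that of the Gapdh difference, in the Flt3, Cxcr4, Cd48 and Kit differences between replicate numbers was not tested.

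The receptors for myeloid growth factors lay on the same side as Flt3 and Cxcr4. Csf1r, the receptor for macrophage colony-stimulating factor, read 7.60 in replicate 2 and 10.96 in replicate 1 (difference −3.36 ± 0.49, limma adjusted p = 0.148), and Csf2ra, a chain of the GM-CSF receptor, differed by −1.52 ± 0.30 (limma adjusted p = 0.172). Of 10 cytokine receptors 9 were lower in replicate 2 (median −0.80), and of 31 other surface genes 21 were lower (median −0.34), with Cd9 at −1.19 ± 0.24 and Cd27 at 0.92 ± 0.24. The upstream transcription factors leaned the other way, 13 of 19 higher (median 0.31), with Meis1, a partner of HOX proteins, at 0.90 ± 0.27 and Mitf, a mast cell and melanocyte factor, at −1.08 ± 0.27. Of 12 ligands and partners 8 were higher, among them Selp (1.16 ± 0.25, limma adjusted p = 0.186) and Angpt1, the TIE2 ligand (0.97 ± 0.25, limma adjusted p = 0.236). Shc1, an adaptor of KIT signalling, differed by −1.54 ± 0.32 (limma adjusted p = 0.184) and Rgs2 by −1.28 ± 0.40 (limma adjusted p = 0.287). Ptpn6, a phosphatase that damps KIT signalling, stood at −0.88 ± 0.27 and Grk6, a kinase of G protein-coupled receptors, at 0.69 ± 0.24.

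**Figure D5:**
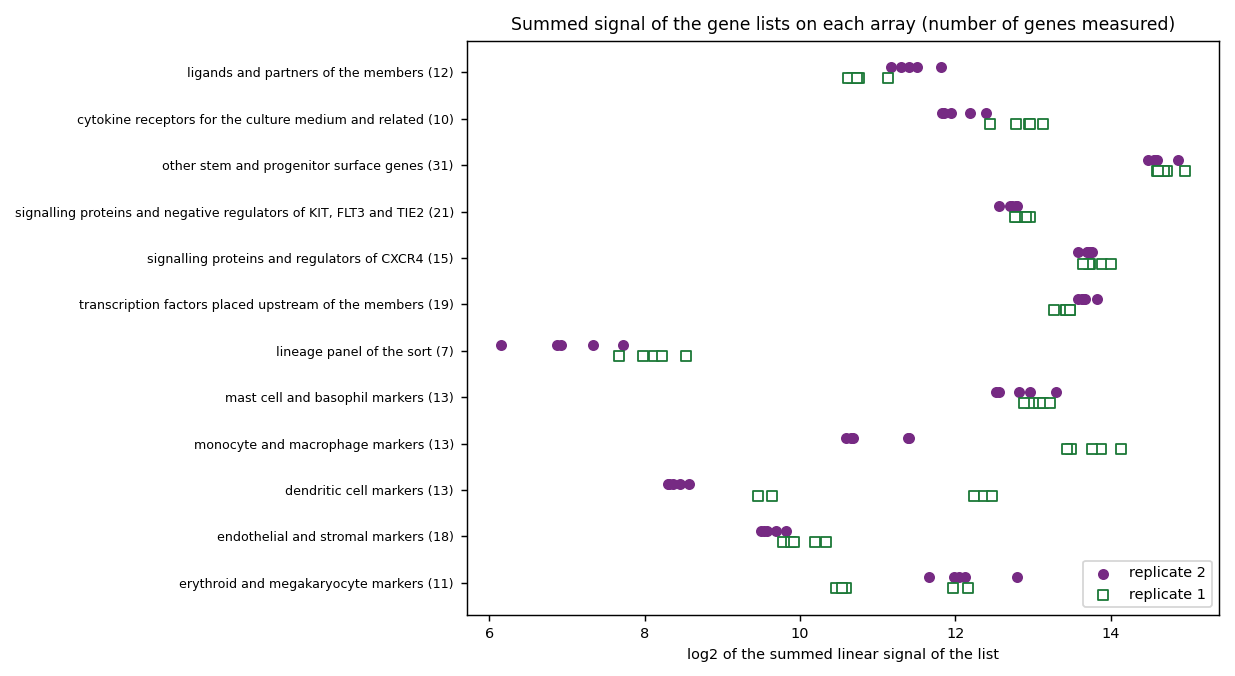
Each row is a gene list with the number of genes measured, and the horizontal axis is the log2 of its summed linear signal on 1 array; filled circles are replicate 2 and open squares replicate 1. Monocyte and macrophage markers lie between 10.6 and 11.4 in replicate 2 and between 13.4 and 14.1 in replicate 1, and the ligands and upstream transcription factors lie higher in replicate 2.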

How the data were processed

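RNA from 10 samples of sorted, HOXB4-transduced mouse cells (5 groups of 2) was amplified with a T7 primer and hybridised to 1-colour oligonucleotide arrays, per the labels' protocols. Per the submitters' processing notes GCOS and RMA were used; their roles are not given. The deposited table holds log2 values: the trimmed linear mean (2% from each end) was 100.0 on every array, array quantiles differed and some values lay below 0, so they were treated as log2 GCOS signals scaled by the authors and were not normalized again. Depth does not apply to arrays; their number limits precision.

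Of 45101 probe sets, 64 controls were left out. Genes were named from the platform annotation: 34945 probe sets had 1 symbol, 932 several and 9160 were not listed. limma 3.58.1 in R 4.3.3 fitted 1 mean per group over the 10 arrays (5 residual degrees of freedom, 2.21 prior), two-sided, with Benjamini-Hochberg adjustment over 45037 probe sets and a threshold of 0.05; the replicate comparison added a term for the replicate number. The script was tested on simulated data. Single arrays are given for the brightest probe set of a gene, and of each list the genes with the smallest p are named. Members and lists were chosen with earlier results of these data known. Whether replicates came from separate animals is not stated, so p-values measure the spread between these samples. The comparisons between constructs and between replicate numbers count arrays split from shared cultures as independent.

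The labels say that populations were split, and same-numbered samples deviated together in 10 of 10 pairs of groups (r 0.21 to 0.53, 22519 brighter probe sets). The lowest r was between the HOXB4const groups with and without TMX. The numbers were taken to pair the samples, but deviating together does not by itself show that same-numbered samples came from 1 culture. The fit with the replicate block was an alternative. Others were quantile normalization, median centring, leaving out dim probe sets, a floor of 3, an intensity trend in the variance, the mean of all probe sets of a gene, only the groups compared, and leaving out each array.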

Additional observations from a re-analysis of the deposited data

How the results depend on the processing

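The alternatives were 8 other settings and 10 fits that each left out 1 array. Of 1307 differences of single receptor probe sets, 1182 did not change sign and kept their side of the threshold. A further 7 came to pass it, 0 ceased to pass and 118 changed sign. The 1182 include differences that became exactly 0 and so have no direction. Slamf1 1425571_at for withdrawal with HOXB4const at the floor of 3 is an example. Of the 118, 0 had a value past the threshold with either sign. Leaving out an array gave 92 of them and turned 46 of the 77 differences at least once, and another setting gave 26. The comparison between replicate numbers depended most on the setting. As reported 0 of 45037 probe sets passed, against 850 of the 22519 kept without the dimmer probe sets. With a floor of 3 it was 9 of 45037, and with an intensity trend 2728 of 45037. Of the 9 receptor probe sets kept without the dimmer ones 2 passed (Kit 1415900_a_at, limma adjusted p = 0.0451, and Cxcr4, limma adjusted p = 0.0271). With the trend 5 of 11 passed (limma adjusted p for Kit 1452514_a_at 0.0298, Kit 1415900_a_at 0.00252, Flt3 0.00727, Cd48 0.0231 and Cxcr4 0.00101). Between constructs 1 probe set passed with the floor and 6 with the trend, and for the difference of the 1 h effects 1 passed with the floor, none of them a receptor. The cause was not tested. With the replicate block 0 probe sets passed, the Procr difference between constructs kept its value of −1.82 (limma adjusted p = 0.355), and no call changed. Without single arrays Procr between constructs ran between −2.27 and −1.38 (limma adjusted p between 0.334 and 0.815). Signal near background limits the 2 dim Slamf1 probe sets.

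These differences changed sign under another setting. Quantile normalization gave Slamf1 1425570_at 0.00779 for 4 h against 1 h without TMX, Slamf1 1425571_at −0.000391 and Tek −0.21 for 1 h of withdrawal with HOXB4const. Quantile normalization also gave Cd34 −0.0343 between constructs, Tek 0.25 between replicate numbers. Median centring gave Cd34 −0.0519 for 1 h of withdrawal with HOXB4-ER, Slamf1 1425570_at 0.0995, Cd48 0.16 and Cxcr4 0.31 for 4 h against 1 h without TMX, Flt3 −0.24, Cd34 −0.17, Procr −0.23 and Tek −0.26 for 1 h of withdrawal with HOXB4const. Median centring also gave Cd48 −0.00868 for the difference of the 1 h effects, Cd34 0.0517 and Tek 0.22 between replicate numbers. The mean of all probe sets of a gene gave Slamf1 0.0488 for 4 h of withdrawal with HOXB4-ER, Kit 0.0799 and Slamf1 0.0275 for 1 h of withdrawal with HOXB4-ER, Slamf1 0.0213 for 4 h against 1 h without TMX, Slamf1 1.22 for 1 h of withdrawal with HOXB4const. The mean of all probe sets of a gene also gave Kit 0.30 and Slamf1 −1.19 for the difference of the 1 h effects, Slamf1 −0.26 between constructs, Kit −0.51 and Slamf1 −0.0995 between replicate numbers.

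Leaving out 1 array at a time gave ranges that crossed 0 for 46 differences. For 4 h of withdrawal with HOXB4-ER they ran −1.52 to 0.63 for Kit 1415900_a_at, −0.92 to 0.20 for Flt3, −0.45 to 0.0801 for Cd34 and −1.52 to 0.0661 for Slamf1 1425571_at. The same comparison gave −0.69 to 0.0473 for Cd48, −0.66 to 0.25 for Tek and −0.69 to 0.45 for Cxcr4. For 1 h of withdrawal with HOXB4-ER they ran −0.81 to 0.26 for Kit 1452514_a_at, −0.0985 to 0.96 for Kit 1415900_a_at, −0.96 to 0.16 for Flt3, −0.89 to 0.56 for Slamf1 1425570_at and −0.15 to 1.01 for Slamf1 1425569_a_at. The same comparison gave −0.97 to 0.61 for Slamf1 1425571_at, −0.43 to 0.30 for Cd48, −1.04 to 0.73 for Procr and −1.13 to 1.09 for Cxcr4. For 4 h against 1 h without TMX they ran −1.95 to 0.20 for Kit 1415900_a_at, −0.26 to 0.35 for Flt3 and −1.04 to 0.41 for Slamf1 1425570_at. There they also ran −1.10 to 0.0087 for Slamf1 1425571_at, −0.60 to 0.089 for Cd48 and −1.21 to 1.01 for Cxcr4. For 1 h of withdrawal with HOXB4const they ran −0.87 to 0.52 for Kit 1452514_a_at, −1.80 to 1.25 for Kit 1415900_a_at, −0.90 to 1.04 for Flt3 and −0.24 to 0.53 for Cd34. The same comparison gave −0.56 to 0.29 for Cd48, −0.23 to 0.39 for Procr and −1.03 to 1.14 for Tek. For the difference of the 1 h effects they ran −0.80 to 0.60 for Kit 1452514_a_at, −0.82 to 2.23 for Kit 1415900_a_at, −1.44 to 0.50 for Flt3 and −0.19 to 0.57 for Cd34. There they also ran −0.35 to 0.49 for Cd48, −1.12 to 0.65 for Procr, −0.45 to 1.73 for Tek and −0.23 to 1.99 for Cxcr4. Between constructs they ran −0.18 to 0.52 for Kit 1452514_a_at, −0.49 to 1.03 for Kit 1415900_a_at and −0.15 to 0.24 for Cd34. There they also ran −0.37 to 0.42 for Slamf1 1425571_at, −0.000375 to 1.09 for Tek and −0.27 to 0.84 for Cxcr4. Between replicate numbers they ran −0.00859 to 0.59 for Slamf1 1425570_at, −0.35 to 0.33 for Slamf1 1425571_at and −0.59 to 0.41 for Tek.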
